A study of Homo sapiens with 6 samples.

Results

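Laminins are large proteins of the basement membrane, the thin matrix sheet on which epithelia, vessels and muscle rest. Each laminin is a trimer of 1 alpha, 1 beta and 1 gamma chain, assembled inside the cell and secreted, and the alpha chain carries the domain that integrins and dystroglycan bind on the cell surface. Nidogen, perlecan and agrin tie the laminin network to type IV collagen, and in many epithelia a trimer that contains the LAMA3 and LAMB3 chains anchors cells through hemidesmosomes. The set described here holds 8 laminin subunit genes, LAMA1, LAMA3, LAMA4, LAMA5, LAMB1, LAMB2, LAMB3 and LAMC1, taken by gene symbol from a list drawn up with earlier results of these data known, out of 57905 genes in the count matrix. LAMA2, LAMB4 and LAMC3 are given beside them, since shares of the alpha and beta chains need every chain of the class.

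Total RNA of HCT116, a colorectal carcinoma cell line with wild-type p53, was sequenced after treatment with Nutlin-3a, a compound that blocks the interaction of p53 with its inhibitor HDM2 (gene MDM2). Cells given the vehicle DMSO (Nut 0h) were compared with cells given 10 µM Nutlin-3a for 1 h (Nut 1h) or 10 h (Nut 10h), and each condition had 2 biological replicates, which makes 6 libraries. There was no separate DMSO group for each treatment time, so time in culture and Nutlin-3a cannot be told apart. The sources used here do not say whether the replicates came from separate cultures, so p-values measure the spread between these libraries, and all of them come from 1 cell line. Libraries held between 26068076 and 35473485 counts assigned to genes, of which 4.99% and 6.18% were mitochondrial under DMSO, 8.44% and 8.15% after 1 h and 6.45% and 7.06% after 10 h. The share was highest in the Nut 1h libraries, and its part in the results at 1 h was not tested.

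The labels were checked against the p53 response and against cell type markers. CDKN1A, the cell cycle inhibitor p21 and a p53 target, stood at 322 and 281 CPM (read counts scaled to a common library size) under DMSO, at 298 and 325 CPM after 1 h and at 4408 and 4231 CPM after 10 h. Its log2 fold change at 1 h was 0.05, and 0.70 with an offset for GC content, described further on. MDM2, also a p53 target, stood at 51.1 and 63.1 CPM under DMSO, 263 and 258 CPM after 1 h and 686 and 847 CPM after 10 h. All 6 epithelial markers (EPCAM, CDH1, KRT8, KRT18, KRT19 and CLDN4) were present at 66.96 CPM or more in every library. Of the fibroblast, endothelial and leukocyte markers, DCN had no count in any library, COL3A1, CDH5 and PTPRC had at most 2 counts in a library, and COL1A1 stood between 23.7 and 42.2 CPM. PECAM1, an endothelial marker also on the list, had no unique row in the count matrix and was left out. In these bulk samples, fewer cells that express a gene and less of its RNA per cell cannot be told apart.

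Of the 8 subunits, 7 passed the filter on low counts and entered edgeR's quasi-likelihood test, which covered 16565 genes. LAMA1 did not pass it. After 10 h of Nutlin-3a, 5 of the 7 tested subunits were called higher and none lower at a Benjamini-Hochberg adjusted p of at most 0.05, where 29.0% of all tested genes were called, 14.1% higher and 14.9% lower. The largest rise was that of LAMA3, 5.30-fold, and LAMB3, LAMC1, LAMB2 and LAMA5 rose between 1.31-fold and 1.59-fold. After 1 h, 2 subunits were called higher (LAMA3 and LAMB1) and 3 lower (LAMA5, LAMB2 and LAMB3), where 66.9% of all tested genes were called, 34.5% higher and 32.3% lower. The share of 5 in 7 at 1 h is thus close to that of all tested genes. With an offset for GC content, described further on, 2 subunits were called lower at 1 h, LAMB3 and LAMA4. LAMA5 and LAMB2 were then not called, and 45.4% of all tested genes were. Both comparisons use the same Nut 0h libraries. The median log2 fold change of the 7 subunits was -0.14 at 1 h and 0.46 at 10 h, and that of all tested genes was 0.045 and 0.

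**Figure D1:**
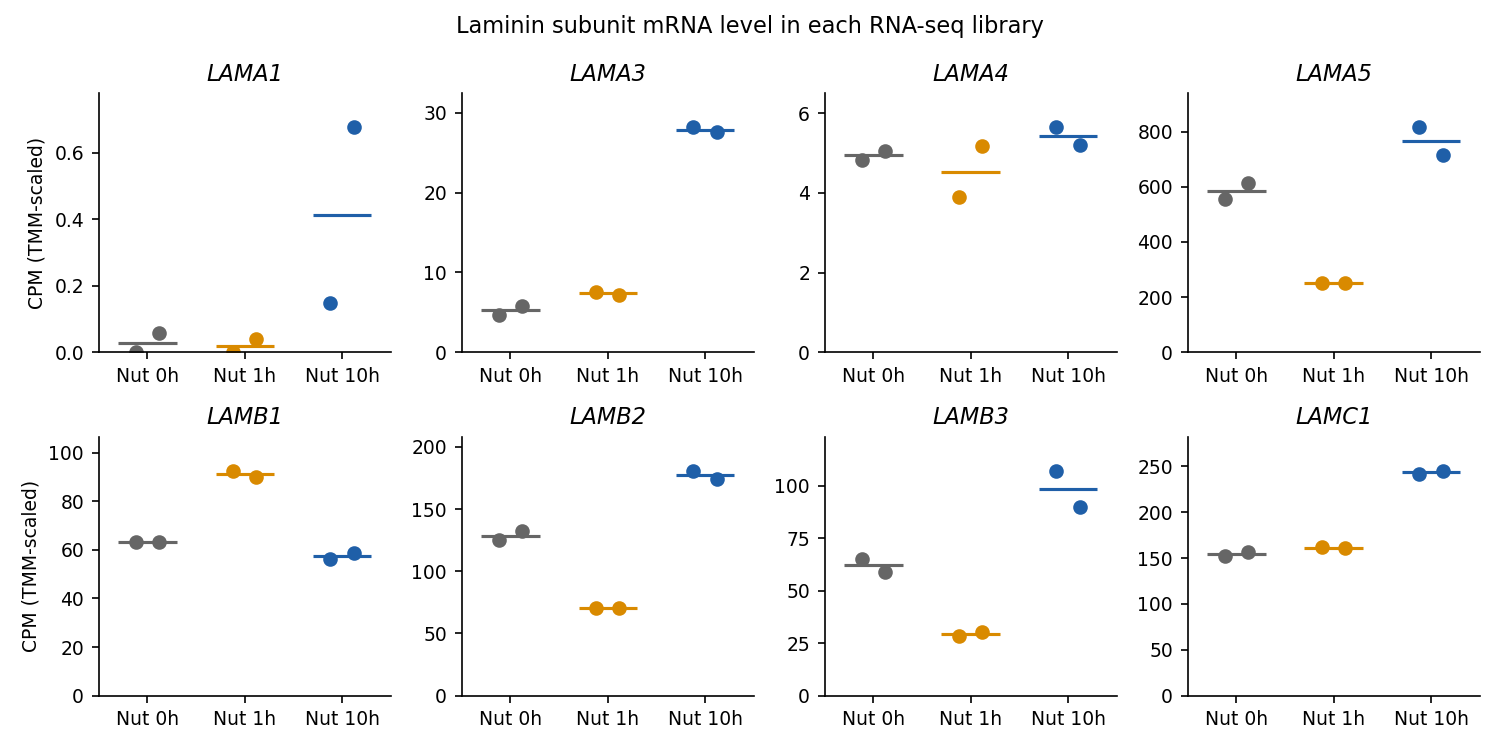
mRNA level of the 8 laminin subunits in CPM scaled by TMM factors, with 1 point per library, horizontal lines at the mean of the 2 replicates, and a y axis that starts at 0 and differs between panels. LAMA3 stands near 28 CPM in both Nut 10h libraries against 4.71 and 5.80 CPM under DMSO, and LAMA5, LAMB2 and LAMB3 share a shape that is low after 1 h and high after 10 h.

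The promoters of the subunits were read to show what sequence lies before the starts of genes that moved in different ways. RefSeq promoters (GRCh38.p14; 300 bases, from 250 before to 50 after the start) were found for 7 of the 8 subunits by symbol, all but LAMA1, and each matched the GRCh37 genome of the count files at 1 place, which gives the GRCh37 positions below. The 250 bases before the start are shown for LAMA3, the subunit that rose most, for the downstream one of the 3 LAMB3 starts, chosen with its TGANTCA match known, for LAMC1, which moved at 10 h and not at 1 h, and for LAMA5, the most abundant alpha chain. Sequences run 5′ to 3′ on the strand of the gene. Capitals mark matches on either strand to TGANTCA, the AP-1 motif, and to GGGCGG, the GC box that Sp1 binds (CCGCCC where it lies on the other strand).
LAMA3, plus strand, chr18:21452734-21452983: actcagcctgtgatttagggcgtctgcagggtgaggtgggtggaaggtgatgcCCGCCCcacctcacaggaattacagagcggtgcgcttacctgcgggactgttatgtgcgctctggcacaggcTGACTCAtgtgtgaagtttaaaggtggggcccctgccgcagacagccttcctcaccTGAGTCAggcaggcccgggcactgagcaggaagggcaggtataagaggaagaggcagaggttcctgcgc
LAMB3, minus strand, chr1:209824720-209824969: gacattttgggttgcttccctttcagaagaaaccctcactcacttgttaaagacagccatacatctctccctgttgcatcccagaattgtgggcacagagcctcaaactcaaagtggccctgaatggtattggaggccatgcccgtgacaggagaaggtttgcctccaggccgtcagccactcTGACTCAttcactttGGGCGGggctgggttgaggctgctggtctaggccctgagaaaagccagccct
LAMC1, plus strand, chr1:182992305-182992554: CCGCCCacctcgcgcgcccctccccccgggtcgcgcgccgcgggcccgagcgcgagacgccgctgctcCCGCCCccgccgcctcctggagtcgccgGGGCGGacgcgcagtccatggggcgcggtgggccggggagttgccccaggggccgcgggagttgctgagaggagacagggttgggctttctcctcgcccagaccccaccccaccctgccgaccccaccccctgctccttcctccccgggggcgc
LAMA5, minus strand, chr20:60942369-60942618: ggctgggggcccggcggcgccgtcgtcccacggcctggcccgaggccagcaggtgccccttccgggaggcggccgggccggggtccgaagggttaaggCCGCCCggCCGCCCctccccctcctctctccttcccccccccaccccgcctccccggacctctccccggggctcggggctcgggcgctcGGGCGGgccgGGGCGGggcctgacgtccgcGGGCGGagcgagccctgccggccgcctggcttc

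LAMA3 held TGANTCA at 2 places, from base -125 to -119 and from base -69 to -63 relative to the start, and 1 of the 3 LAMB3 starts, the one shown, held it once, from -67 to -61, while the other 2 did not. These were 2 of the 9 promoters of the subunits, and 7.7% of all 35116 RefSeq promoters of the same length did. GGGCGG was found 5 times before LAMA5, 4 times before LAMB1, 3 times before LAMC1, once before LAMA3 and LAMB2, once before each LAMB3 start and not before LAMA4, and 15786 of the 35116 promoters held it. GGGCGG and TGANTCA did not overlap in these windows. The windows of the 2 upstream LAMB3 starts overlap each other, and their GGGCGG match is the same site. TATAAA was found in none of the subunits' promoters and in 11.5% of all promoters. The consensus p53 half-site was found in none of them and in 6.6% of all promoters, and a pair of half-sites up to 13 bases apart in none of them and in 0.03% of all. The LAMA3 window lies at the start of a shorter transcript, at 21452984. The start of the longest LAMA3 transcript, at 21269417, had no window and was not searched. A match describes letters in a window and is not a measured binding site, and a window without a match says nothing about sites elsewhere. The GC content of the promoter was 82.7% for LAMA5, 79.0% for LAMC1, 71.0% for LAMB1, 61.7% for LAMA3 and between 51.3% and 61.3% for the rest.

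The alpha chains set how a laminin binds cells, and LAMA3 encodes the alpha chain of the trimer that holds epithelial cells to the hemidesmosome. LAMA3 (chr18:21269417-21536186 on GRCh37, plus strand) stood at 4.71 and 5.80 CPM under DMSO, at 7.51 and 7.20 CPM after 1 h and at 28.2 and 27.6 CPM after 10 h. Both Nut 10h libraries lay far above the other 4, and both Nut 1h libraries lay above both Nut 0h libraries. The log2 fold change from Nut 0h was 0.48 ± 0.14 (SE) at 1 h (edgeR's quasi-likelihood test, adjusted p = 0.0060) and 2.41 ± 0.12 at 10 h (adjusted p = 7.3e-09). The call at 1 h was lost without the first Nut 0h replicate (log2 fold change 0.34) and without the first Nut 1h replicate (0.46), whereas the call at 10 h held without any 1 library, at 2.26 to 2.56. LAMA3 makes a long and a short chain from separate starts. The longest annotated transcript has 75 exons and 10651 bases and starts at 21269417, and the short one has 38 exons and 5618 bases and starts at 21452984, next to the last base of the promoter sequence shown above. The counts are per gene, and the split of the rise between the 2 forms was not tested.

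LAMA5 encodes the main alpha chain of adult epithelial basement membranes, and it had the highest level per length of the longest transcript among the 8 subunits in all 6 libraries. Per coding length LAMC1 stood above it after 1 h, at 33.6 and 33.3 against 22.5 and 22.6 CPM per kb. LAMA5 (chr20:60883011-60942368, minus strand) stood at 554 and 613 CPM under DMSO, fell to 249 and 250.1 CPM after 1 h and stood at 816 and 716 CPM after 10 h. The groups did not overlap, and the 2 Nut 1h libraries were within 1 CPM of each other. The log2 fold change was -1.23 ± 0.10 (SE) at 1 h (adjusted p = 3.2e-07) and 0.39 ± 0.10 at 10 h (adjusted p = 0.0084). With the GC offset described further on, the value at 1 h turned to 0.15 and was not called. The rise at 10 h was not called without the first Nut 0h replicate (log2 fold change 0.32) or without the first Nut 10h replicate (0.30). Exons of LAMA5 overlap those of ADRM1 on the opposite strand, a gene with up to 10884 counts in a library, and whether counting used the strand is not given in the sources used here, so reads from the shared stretch cannot be told apart.

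LAMA4, whose chain is typical of vessels and mesenchyme, was low and was called in neither comparison with Nut 0h without the GC offset described further on. LAMA4 (chr6:112429134-112576141, minus strand) stood at 4.83 and 5.06 CPM under DMSO, 3.89 and 5.18 CPM after 1 h and 5.65 and 5.21 CPM after 10 h, with overlapping values in the Nut 0h and Nut 1h groups. Its log2 fold change was -0.14 at 1 h (95% interval -0.50 to 0.23, adjusted p = 0.49) and 0.13 at 10 h (95% interval -0.21 to 0.48, adjusted p = 0.58). The direction at 1 h turned to 0.07 without the first Nut 1h replicate.

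LAMA1, whose chain is best known from the embryo, was at or near 0 in most libraries. LAMA1 (chr18:6941741-7117796, minus strand) had 0 and 2 counts under DMSO, 0 and 1 after 1 h, and 5 and 24 after 10 h, where 3 counts correspond to 0.0846 to 0.114 CPM. The summed counts after 10 h were 14.4 times those under DMSO after scaling for library size (95% counting interval 3.65 to 125), and most of them came from the second Nut 10h library. When no filter was applied LAMA1 was called higher after 10 h, and without the second Nut 10h library it did not pass the filter. That library also held more counts than its replicate for all 6 genes of the basement membrane and protease lists that had at most 61 counts in every library, a choice made after their values were seen. COL4A1 had 15 counts in the first Nut 10h library and 44 in the second, and COL4A2 had 4 and 51. NID1 had 20 and 49, NID2 had 19 and 41, MMP2 had 2 and 14 and MMP7 had 11 and 19. DCN had 0 and COL3A1 had 0 and 1 in these libraries. Whether the counts of LAMA1 and of these genes in that library share a source was not tested.

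The beta and gamma chains coil around an alpha chain in the long arm of the laminin cross. LAMB1 and LAMB2 both assemble with the LAMC1 chain, and LAMB3 assembles with the LAMA3 chain. LAMB1 (chr7:107564244-107643658, minus strand) stood at 63.3 and 63.1 CPM under DMSO, 92.6 and 89.9 CPM after 1 h and 56.1 and 58.7 CPM after 10 h. It was the only tested subunit that was higher in both Nut 1h libraries than in the other 4 libraries. Its log2 fold change was 0.53 ± 0.09 (SE) at 1 h (adjusted p = 0.00012) and -0.14 ± 0.09 at 10 h (95% interval -0.33 to 0.05, adjusted p = 0.26). Exons of LAMB1 overlap those of DLD on the opposite strand, a gene with up to 4770 counts in a library.

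LAMB2 and LAMB3 moved the other way at 1 h. LAMB2 (chr3:49158547-49170551, minus strand) stood at 125 and 132 CPM under DMSO, 70.5 and 70.6 CPM after 1 h and 181 and 174 CPM after 10 h. LAMB3 (chr1:209788215-209825770, minus strand) stood at 65.3 and 58.9 CPM under DMSO, 28.3 and 30.4 CPM after 1 h and 107 and 89.9 CPM after 10 h. For both genes the 3 groups did not overlap, with Nut 1h lowest and Nut 10h highest. The log2 fold change of LAMB2 was -0.87 ± 0.09 (SE) at 1 h (adjusted p = 1.8e-06) and 0.46 ± 0.09 at 10 h (adjusted p = 0.0013). That of LAMB3 was -1.08 ± 0.11 at 1 h (adjusted p = 1.6e-06) and 0.67 ± 0.11 at 10 h (adjusted p = 0.00029). With the GC offset described further on, LAMB2 at 1 h stood at -0.04 and was not called. LAMB3 at 1 h stood at -0.36 with it and was still called lower.

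LAMC1 encodes the gamma chain that most laminins share. LAMC1 (chr1:182992555-183114727, plus strand) stood at 153 and 157 CPM under DMSO, 162 and 161 CPM after 1 h and 242 and 245 CPM after 10 h. The Nut 10h libraries stood apart from the other 4, which lay within 10 CPM of each other. The log2 fold change was 0.06 ± 0.09 (SE) at 1 h (95% interval -0.13 to 0.25, adjusted p = 0.55) and 0.65 ± 0.09 at 10 h (adjusted p = 6.4e-05). The antisense gene LAMC1-AS1 lies within LAMC1, shares no exon with it and had at most 18 counts in a library.

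Chains outside the set moved in both directions. LAMC3, a gamma chain of more restricted use, fell by 1.38 (log2) at 1 h (adjusted p = 4.0e-07) and rose by 0.52 at 10 h (adjusted p = 0.0023). LAMA2, the alpha chain of muscle and nerve, rose by 0.89 at 1 h (adjusted p = 2.8e-05) from 6.97 and 7.40 CPM, and at 10 h its log2 fold change was -0.33 (adjusted p = 0.081). With an offset for GC content, described further on, LAMA2 was called lower at 10 h at -0.38, and LAMC3 at 1 h moved from -1.38 to -0.35 and stayed called. LAMB4 had 1 count in 1 library and none in the other 5.

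**Figure D2:**
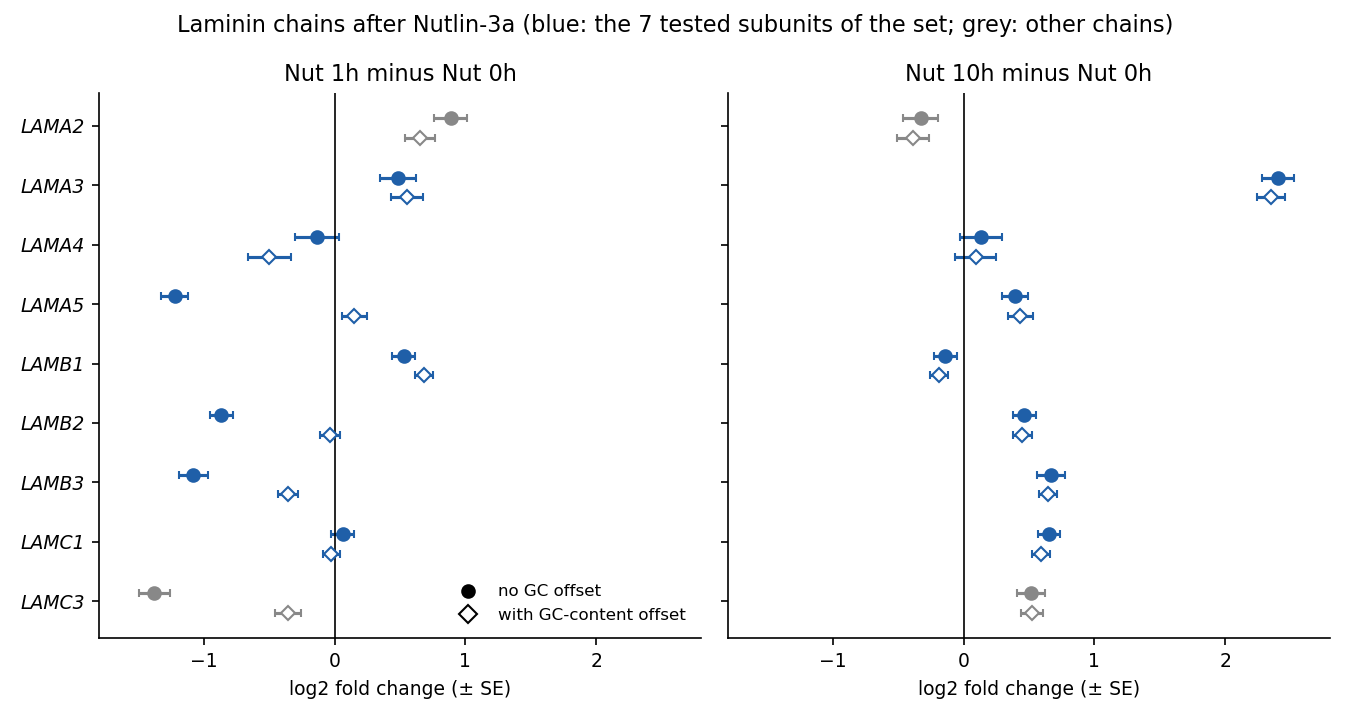
log2 fold change against Nut 0h of 9 tested laminin chains after 1 h (left) and 10 h (right), with bars of 1 SE, filled circles for the test without and open diamonds for the test with an offset for GC content, blue for subunits of the set and grey for the other chains. After 1 h LAMA5 moves from -1.23 to 0.15 with the offset, and after 10 h every pair of symbols lies close together, with LAMA3 at 2.41 and 2.35.

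The fold changes at 1 h tracked the GC content of the transcripts. Across 16137 tested genes with a known GC content, the Pearson correlation of GC content with the log2 fold change was -0.689 at 1 h and -0.026 at 10 h, given as a description, since these genes share the same 4 libraries. The subunits that were lower at 1 h had GC-rich transcripts, with 66.4% GC for LAMA5, 60.3% for LAMB2 and 58.9% for LAMB3. The subunits that were higher at 1 h or not called had 50.7% (LAMA3), 51.8% (LAMB1), 48.8% (LAMC1) and 45.1% (LAMA4). Tested genes with 57% to 61% GC had a median log2 fold change of -0.76 at 1 h (interquartile range -1.07 to -0.43), and those with 61% to 67% GC had -1.12 (-1.44 to -0.84). LAMA5 and LAMB2 lay inside these ranges and LAMB3 at the lower edge. Tested genes with 49% to 53% GC had a median of -0.12 (-0.46 to 0.23), and LAMA3 and LAMB1 lay above that range. Those with 45% to 49% GC had 0.21 (-0.12 to 0.55), with LAMC1 (0.06) inside that range and LAMA4 (-0.14) just below it.

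When a smooth trend on GC content was taken out of each library before the test, 45.4% of all tested genes were called at 1 h, 20.6% higher and 24.8% lower, and of the 7 subunits 2 were called higher and 2 lower. LAMA5 then had a log2 fold change of 0.15 and LAMB2 of -0.04, and neither passed the test. LAMB3 remained lower at -0.36, LAMA3 remained higher at 0.55 and LAMB1 at 0.68. LAMC1 turned to -0.03 and was not called in either fit, and LAMA4 was called lower at -0.50. The calls of LAMA5 and LAMB2 at 1 h therefore depend on whether GC content is corrected. At 10 h, where 39.3% of all tested genes were called with the offset (17.0% higher and 22.3% lower), the same 5 subunits were called higher, with LAMA3 at 2.35, LAMB3 at 0.64, LAMC1 at 0.59, LAMB2 at 0.45 and LAMA5 at 0.43. LAMB1, at -0.19, was then called lower, a call lost when the replicate block was added to the offset.

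**Figure D3:**
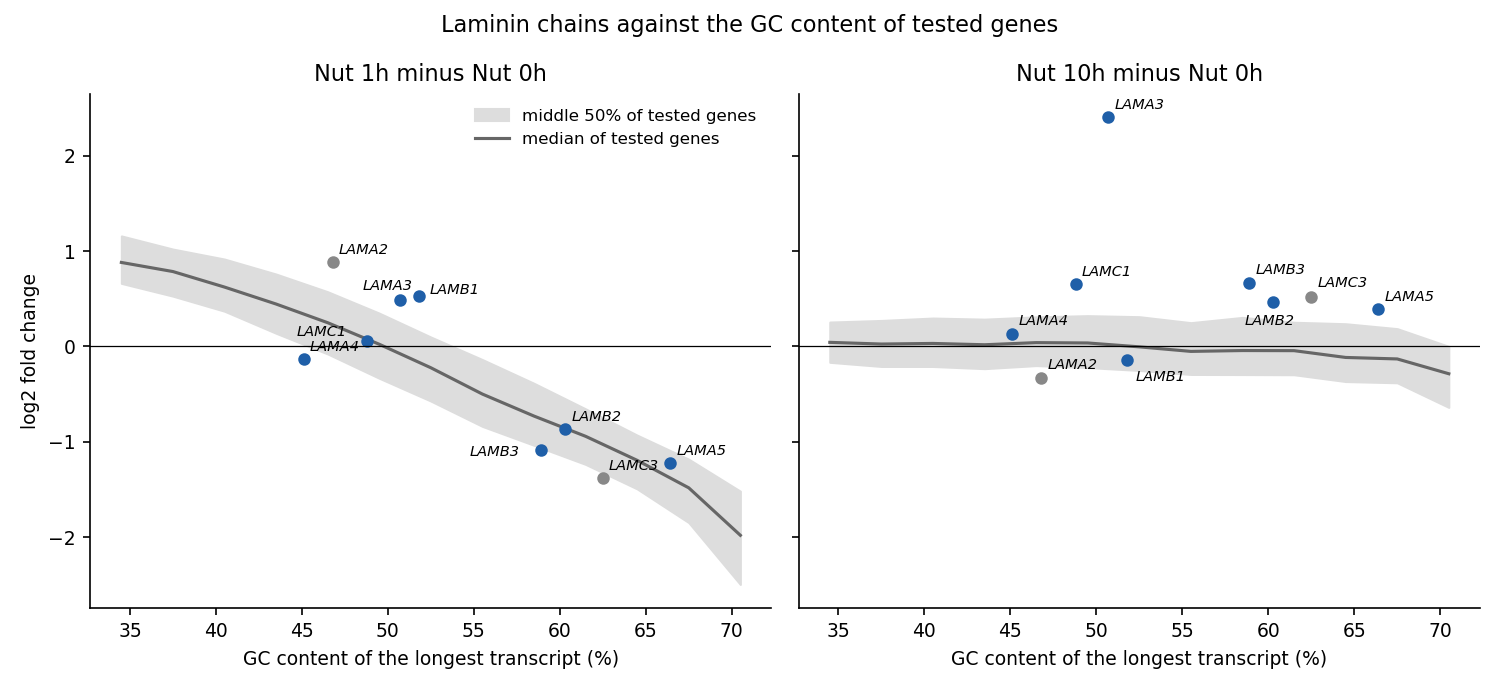
log2 fold change after 1 h (left) and 10 h (right) against the GC content of the longest transcript in percent, with a grey line at the median and a band over the interquartile range of tested genes in bins of 3 percentage points, and points for the tested laminin chains (blue for the set, grey for other chains). After 1 h the band falls from a median of 0.88 to -1.98, and LAMA5 at -1.23 lies within it, whereas after 10 h the band is nearly flat and LAMA3 at 2.41 lies far above it.

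The libraries after 10 h were also compared directly with those after 1 h, which tests whether the 2 changes from Nut 0h differ. Of the 7 tested subunits, 5 were higher after 10 h and 1 was lower, where 67.9% of all tested genes were called, 34.2% higher and 33.7% lower. LAMA3 was 3.79-fold, LAMB3 3.36-fold, LAMA5 3.07-fold, LAMB2 2.52-fold and LAMC1 1.51-fold higher, and LAMB1 was 1.59-fold lower. LAMA4 was not called, with a log2 difference of 0.27 (95% interval -0.09 to 0.63, adjusted p = 0.16). With the GC offset, LAMA5 was higher by 0.28 on the log2 scale in place of 1.62, LAMB2 by 0.49 in place of 1.33 and LAMB3 by 1.00 in place of 1.75, while LAMA3 (1.80 and 1.92) and LAMC1 (0.62 and 0.59) moved little. LAMA4 was called higher with the offset, at 0.59, which made 6 subunits higher and 1 lower, where 57.8% of all tested genes were called, 28.8% higher and 29.0% lower.

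Levels of different chains were compared per length, as CPM per kb of the longest transcript. LAMA5 made up 96.4% ± 0.01 (SD, n = 2) of the alpha chain mRNA under DMSO, 89.2% ± 0.01 after 1 h and 94.4% ± 0.38 after 10 h. LAMA3 made up 0.929% ± 0.071, 2.82% ± 0.09 and 3.70% ± 0.27 of it, and its level per length went from 0.494 CPM per kb under DMSO to 2.62 after 10 h. Under DMSO LAMA4 stood above LAMA3 per length (0.668 and 0.701 against 0.442 and 0.545 CPM per kb), and after 10 h it stood below it (0.782 and 0.721 against 2.65 and 2.59). The share of LAMA3 would be 1.75%, 5.21% and 6.78% if all its counts came from the short transcript, and LAMA3 would then stand above LAMA4 under DMSO as well (0.839 and 1.03 CPM per kb).

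Among the beta chains, LAMB2 held the largest share under DMSO (48.7% ± 2.0) and after 10 h (49.8% ± 1.4), and LAMB1 the largest after 1 h (41.4% ± 0.9), where LAMB2 held 37.8% ± 0.1. LAMB1 went from 20.2% ± 0.1 under DMSO to 13.6% ± 1.2 after 10 h, and LAMB3 from 31.1% ± 2.1 over 20.8% ± 1.0 after 1 h to 36.5% ± 2.6. The order LAMB2, LAMB3, LAMB1 held in all 4 libraries of Nut 0h and Nut 10h, and LAMB1, LAMB2, LAMB3 in both of Nut 1h. The summed alpha chains per length stood at 50.3 and 55.6 CPM per kb under DMSO, 24.5 and 24.5 after 1 h and 75.5 and 66.6 after 10 h. The summed beta chains stood at 46.6 and 46.2 CPM per kb, 32.7 and 32.8, and 65.0 and 60.2 in the same order. Both sums were highest in the Nut 10h libraries and lowest in the Nut 1h libraries. LAMC1 stood at 19.3 and 19.8 CPM per kb under DMSO, 20.5 and 20.3 after 1 h and 30.5 and 30.9 after 10 h. These shares and sums carry no test, and those after 1 h carry the relation to GC content given above.

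**Figure D4:**
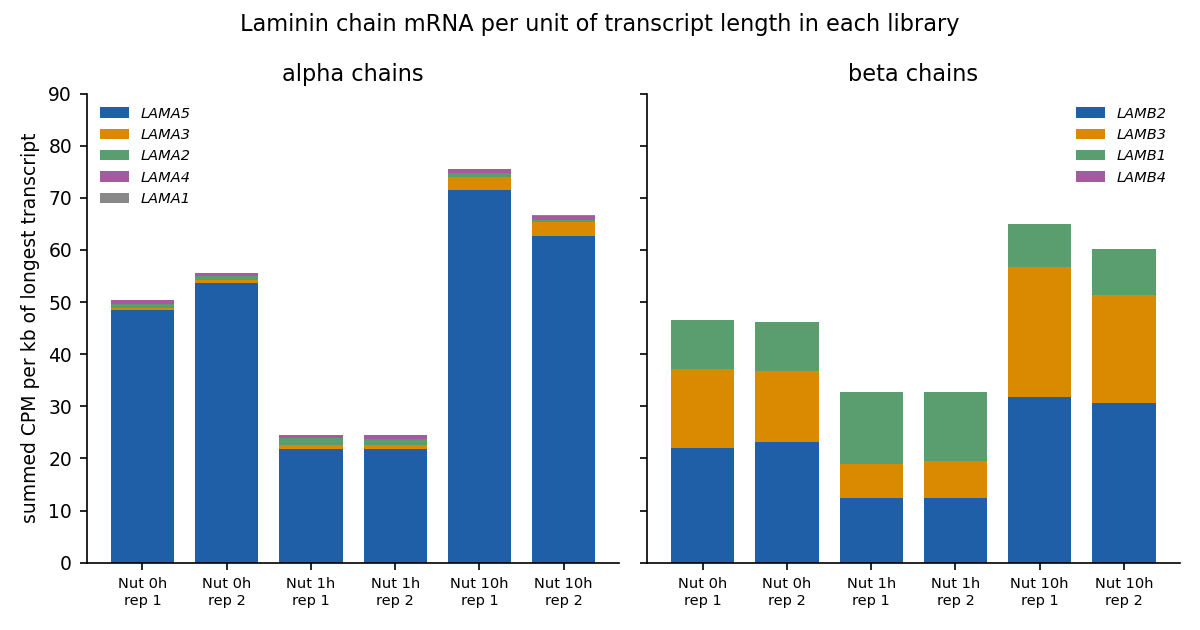
Stacked bars of CPM per kb of the longest transcript for the alpha (left) and beta (right) chains in each of the 6 libraries. LAMA5 fills nearly all of the alpha bars, which reach 75.5 and 66.6 CPM per kb after 10 h, and LAMB1 takes a larger part of the beta bars after 1 h than in the other 4 libraries.

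Genes whose products join laminins in the basement membrane were taken from a list of 12, of which 11 were tested. COL4A1 and NID1 passed the filter on low counts only through the Nut 10h libraries, so their direction at 10 h was fixed by the filter, and both were left out of the counts that follow. They had at most 4 counts in each Nut 0h and Nut 1h library, and 15 and 44 for COL4A1 and 20 and 49 for NID1 in the Nut 10h libraries. At 10 h, 5 of the other 9 were higher and none lower, where 14.1% of all tested genes were higher and 14.9% lower, and 14.0% and 15.3% of the 16062 genes that did not pass through a single group. The median log2 fold change of the 9 was 0.28. COL4A5, a type IV collagen chain, rose by 1.09 on the log2 scale (adjusted p = 1.2e-05), from 16.9 and 15.2 CPM under DMSO to 33.2 and 35.2 CPM after 10 h. HSPG2, the heparan sulfate proteoglycan perlecan, rose by 0.93 (adjusted p = 4.2e-06), and AGRN, which encodes agrin, by 0.61 (adjusted p = 0.00026). PXDN, the peroxidase that crosslinks type IV collagen, was called at 0.28 (adjusted p = 0.047), a call lost whichever of the 4 libraries was left out (0.22 to 0.33) and with RLE factors, DESeq2, no filter or only these 2 groups in the fit. COL4A6, another type IV collagen chain and named after its values were seen, rose by 1.06 (adjusted p = 0.00098). At 1 h, where 66.9% of all tested genes were called, 3 were higher and 3 lower, with AGRN at -1.40, COL18A1, the collagen that releases endostatin, at -0.94 and HSPG2 at -0.85. COL4A4, a type IV collagen chain, was higher at 0.45 and stayed so with the GC offset (0.42), a call lost without the first Nut 1h replicate (0.38). AGRN, COL18A1 and HSPG2 turned to 0.11, 0.52 and 0.36 with the GC offset, under which 7 of the 9 were higher and none lower, against 20.6% and 24.8% of all tested genes.

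Receptors and coreceptors of laminin were taken from a list of 10, all of which were tested. At 10 h, 5 were higher and 1 lower, where 29.0% of all tested genes were called, and the median log2 fold change was 0.34. SDC4, a syndecan, stood at 106 and 102 CPM under DMSO and 218 and 219 CPM after 10 h, a 2.11-fold rise (adjusted p = 5.2e-07). ITGA3, the alpha subunit of an integrin that binds LAMA5 and LAMA3 laminins, rose from 733 and 661 CPM to 1391 and 1193 CPM (log2 fold change 0.89, adjusted p = 1.8e-05). SDC1 rose by 0.77 (adjusted p = 6.8e-05) and ITGB4, the beta subunit of the hemidesmosome integrin, by 0.44 (adjusted p = 0.0042). ITGA6, the partner of ITGB4, rose by 0.42 (adjusted p = 0.0065) and DAG1, which encodes dystroglycan, fell by 0.25 (log2, adjusted p = 0.043), and both were named after their values were seen. The call of DAG1 was lost whichever of the 4 libraries was left out (-0.29 to -0.22), with the replicate block and with only these 2 groups in the fit, and that of ITGA6 without the first Nut 0h replicate (0.33). ITGB1, the beta subunit that pairs with ITGA3, had a log2 fold change of 0.11 at 10 h (adjusted p = 0.41). At 1 h, 4 receptors were higher and 6 lower, where 66.9% of all tested genes were called. ITGB4 fell by 1.58, CD151, a tetraspanin that binds laminin integrins, by 1.21 and ITGA3 by 0.85, and ITGB1 rose by 0.96. With the GC offset at 1 h, 5 were higher and 1 lower, where 45.4% of all tested genes were called. ITGB4 stayed lower at -0.46 and ITGB1 higher at 0.26, CD151 was not called at -0.17 and ITGA3 turned to 0.07. BCAM, the Lutheran glycoprotein that binds LAMA5, and SDC1 turned from lower (-0.56 and -0.63) to higher (0.61 and 0.19), and both were named after their values were seen. The call of SDC1 at 1 h did not hold under every alternative.

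Inside the cell, the list of 14 hemidesmosome and focal adhesion genes held 1 higher and 1 lower gene at 10 h and 12 that were not called, where 29.0% of all tested genes were called. The gene that rose was COL17A1, a collagen of the hemidesmosome, named after its values were seen. It stood at 3.40 and 2.11 CPM under DMSO, 2.04 and 1.45 CPM after 1 h and 10.6 and 9.92 CPM after 10 h, a log2 fold change of 1.90 (adjusted p = 5.6e-06). FERMT2, a kindlin, which helps activate integrins, fell by 0.45 (adjusted p = 0.0066), a call lost without the second Nut 0h replicate (log2 fold change -0.36). The median log2 fold change of the list was 0.03 at 10 h, and with the GC offset 4 genes were called higher and 2 lower, where 39.3% of all tested genes were called. At 1 h, 5 were higher and 7 lower, where 34.5% and 32.3% of all tested genes were, with DST, a plakin that links integrin and keratin, at 1.18, and the adhesion scaffold BCAR1 at -1.12, the scaffold PXN at -0.91 and the kinase SRC at -0.82. Under the offset for GC content DST stayed higher at 0.61, and BCAR1, PXN and SRC, at -0.03, -0.09 and -0.07, were not called. In that fit 3 of the 14 were higher and 1 lower, where 45.4% of all tested genes were called. PLEC, the plakin plectin, turned from lower at -0.66 to higher at 0.77 and PARVA, an adapter of focal adhesions, was the lower gene at -0.28, and both were named after their values were seen.

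Of 6 genes for proteases that cut laminin chains and for netrins, which are relatives of laminin, 5 were tested. At 10 h, 4 were higher and none lower, where 14.1% of all tested genes were higher. NTN1 rose by 1.28 (adjusted p = 1.1e-06), from 22.2 and 18.2 CPM to 51.8 and 46.4 CPM. MMP14, a membrane protease, rose by 0.77 (adjusted p = 0.00012) and BMP1, a protease that trims laminin chains, by 0.60 (adjusted p = 0.00075). NTN4, the fourth gene and named after its values were seen, rose by 0.46 (adjusted p = 0.042), a call lost without the first (0.51) or second (0.40) Nut 0h replicate and without the second Nut 10h replicate (0.40), and also with DESeq2, no filter or only these 2 groups in the fit. At 1 h, 4 were lower, where 32.3% of all tested genes were, among them BMP1 at -1.16, NTN1 at -1.03 and MMP14 at -0.49. The fourth was NTN4 at -0.42, a call lost without the first Nut 0h (-0.37) or either Nut 1h replicate (-0.35 and -0.49), with DESeq2 and with the replicate block (-0.42). BMP1 and NTN4 stayed lower with the GC offset, at -0.26 and -0.58, where 24.8% of all tested genes were lower, and NTN1 and MMP14, at 0.01 and 0.21, were not called.

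**Figure D5:**
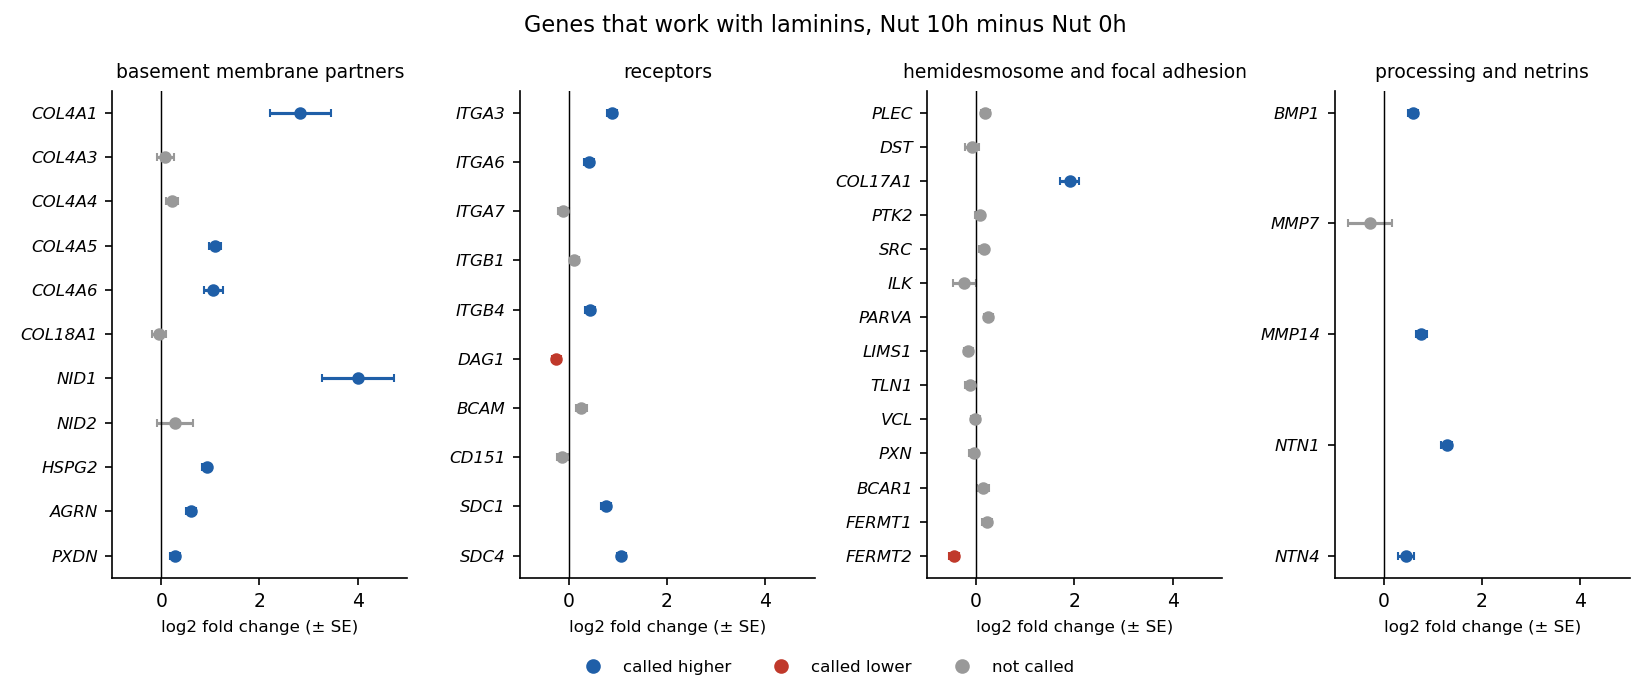
log2 fold change of Nut 10h over Nut 0h, with bars of 1 SE, for the tested genes of 4 lists of genes that work with laminins, in blue where called higher, red where called lower and grey where not called. In the lists of basement membrane partners, receptors, and proteases and netrins, 7, 5 and 4 genes are blue, the 7 with COL4A1 and NID1, which passed the filter only through the Nut 10h libraries, and in the hemidesmosome and focal adhesion list COL17A1 at 1.90 is the only blue point.

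The genes with a pattern most like that of 2 subunits were found by the Euclidean distance between pairs of log2 fold changes (Nut 1h and Nut 10h against Nut 0h) over 9532 tested genes with a mean of at least 10 CPM. For LAMC1 (0.06 and 0.65) the nearest were EMR2 (0.07 and 0.65), DIRC2 (0.04 and 0.60), IP6K2 (0.01 and 0.68) and PTPRM (0.13 and 0.67), at distances of 0.00443 to 0.0709. For LAMA5 (-1.23 and 0.39) the nearest were RHOC (-1.21 and 0.41), PIP5KL1 (-1.19 and 0.42), TJP3 (-1.22 and 0.35) and ELF3 (-1.20 and 0.35), at distances of 0.02 to 0.0458. The likeness rests on 2 values per gene that share the Nut 0h libraries. These are values without the GC offset, with which LAMA5 stood at 0.15 at 1 h.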

How the data were processed

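The authors trimmed reads with Trim Galore 0.6.6, aligned them to GRCh37.p13 with STAR 2.7.0f and counted reads per gene with featureCounts (Subread 2.0.0), and the deposited matrix holds these raw counts for 57905 genes in 6 libraries. Whether counting used the strand or reads with several alignments is not given in the sources used here. A second deposited table was used only to pair gene symbols with identifiers; its columns of the authors' own comparisons (fold changes and p-values) were not used.

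Counts of all 6 libraries were filtered (filterByExpr), scaled by TMM factors and fitted with edgeR 4.0.16 on condition (quasi-likelihood test, 3 residual degrees of freedom, Benjamini-Hochberg adjustment over 16565 genes, called at 0.05). The spread of each gene was moderated toward that of other genes, with a median of 10.7 prior degrees of freedom. CPM used the TMM factors. The GC offset was a loess trend (span 0.4) on the GC content of the longest GENCODE transcript, fitted per library, and lengths and positions came from the same annotation on GRCh37. Alternatives were RLE factors, DESeq2 1.42.0, no filter, 2 groups per fit, a replicate block, the GC offset, each library left out in turn, and other transcript lengths.

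Some items are not reported here. The members and lists were chosen with earlier results of these data known. Named genes were all 8 subunits, 3 other chains, up to 4 called genes per list and comparison with the largest absolute log2 fold change at a mean of at least 10 CPM, and the 4 genes nearest to LAMC1 and to LAMA5. Promoters came from RefSeq (GRCh38.p14). Counting intervals (95%) and the floor of 3 counts cover counting error only.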

Additional observations from a re-analysis of the deposited data

Results flagged for a closer look

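The change from Nut 0h at 10 h differed from that at 1 h for 8 of 9 tested laminin chains, by edgeR's quasi-likelihood test of Nut 10h against Nut 1h, where 67.9% of all tested genes were called. Without a DMSO group for each time, time in culture and Nutlin-3a cannot be told apart here. The difference, as the log2 fold change at 10 h minus that at 1 h, was 1.92 for LAMA3, 1.62 for LAMA5, 1.33 for LAMB2, 1.75 for LAMB3, 0.59 for LAMC1 and 1.90 for LAMC3, and it was -0.67 for LAMB1 and -1.21 for LAMA2. With the GC offset it was 0.28 for LAMA5, 0.49 for LAMB2, 1.00 for LAMB3 and 0.88 for LAMC3, and 1.80, 0.62, -0.87 and -1.03 for LAMA3, LAMC1, LAMB1 and LAMA2. LAMA4 was then called as well, at 0.59, where 57.8% of all tested genes were called. LAMA5, LAMB2, LAMB3 and LAMC3 fell in both Nut 1h libraries and rose in both Nut 10h libraries without the offset, and LAMA3 rose in all 4.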

How the results depend on the processing

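With the GC offset, alone and with the replicate block, the direction at 1 h turned for LAMA5 (0.15 and 0.16), LAMC1 (-0.027 in both), AGRN (0.11 and 0.12), COL18A1 (0.52 in both), HSPG2 (0.36 in both), ITGA3 (0.066 in both), NTN1 (0.0060 and 0.0055), MMP14 (0.21 in both), PLEC (0.77 in both), BCAM (0.61 and 0.60) and SDC1 (0.19 in both), and for PARVA, not called before, to -0.28 in both. LAMB2 at 1 h was no longer called (-0.04 and -0.03), and LAMA4 was called at 1 h (-0.50 in both) and between Nut 10h and Nut 1h (0.59 in both). At 10 h LAMB1 was called lower with the offset alone and not with the block as well (-0.19 in both), and LAMA2 was called lower with either (-0.38 and -0.39). RLE factors, DESeq2, no filter and fits of 2 groups changed no call of the 7 tested members, but 1 or more of them lost the calls of PXDN, DAG1 and NTN4 at 10 h, and DESeq2 that of NTN4 at 1 h. Without the filter LAMA1 entered the test and was called higher after 10 h against both other groups, and with DESeq2 against Nut 1h, while DESeq2 gave it no adjusted p against Nut 0h.

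Without 1 library, LAMA1 passed the filter in some fits, but only through the Nut 10h libraries. Its direction at 10 h was thus fixed by the filter. The log2 fold change of LAMA3 at 1 h ranged from 0.34 to 0.63, and that of LAMA5 at 10 h from 0.30 to 0.50. LAMA4 ranged from -0.35 to 0.072 at 1 h, the latter without the first Nut 1h replicate, and between Nut 10h and Nut 1h it was called at 0.48 without the second.

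Across genes, same-numbered replicates deviated together between Nut 0h and Nut 10h (correlation 0.221) and not between Nut 1h and Nut 0h (-0.149) or Nut 10h (-0.138), and with 2 replicates a group and no shared origin in the labels the numbers were not read as pairs. With the replicate block and no offset 10979 genes were called at 1 h, 4893 at 10 h and 11189 between Nut 10h and Nut 1h, and no call of a member changed, while those of DAG1 at 10 h and NTN4 at 1 h were lost. With the block and the GC offset together, 7304 genes were called at 1 h in place of 11077. The causes of these changes were not tested beyond the offset itself.

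With the coding length in place of the longest transcript, LAMA5 made up 96.0%, 88.4% and 94.0% of the alpha chains under DMSO, after 1 h and after 10 h, and LAMB1 22.1%, 44.3% and 15.0% and LAMB2 44.8%, 34.0% and 46.0% of the beta chains. With the short LAMA3 transcript, an alternative chosen after seeing the data, LAMA3 made up 1.75%, 5.21% and 6.78% and LAMA5 95.6%, 87.0% and 91.4%. The same alternatives were run for LAMA2, LAMC3 and other named genes of the lists, also after seeing the data. Not all of them were run for CDKN1A, ITGB1 at 10 h or the genes nearest to LAMC1 and LAMA5. LAMA1 and LAMB4 were too low to pass the filter, and LAMA3 and LAMA4 rest on 128 to 247 counts per library under DMSO and after 1 h.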
